A study of Homo sapiens with 24 samples.

Results

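The genes described here are *ABCC2*, *CES1*, *NQO1*, *AKR1C1*, *AKR1C2*, *AKR1C3*, *AKR1B10*, *GCLM*, *TXNRD1*, and *SRXN1*, which serve the NRF2 response and the handling of xenobiotics. They are 10 of the 43037 genes in the deposited CAGE-Seq table, and were found by matching Ensembl identifiers to these symbols. *ABCC2* and *CES1* were chosen by their measured log2FC between “WWOX” and “Vec” cells in U87MG and T98G. In those 2 lines, differences between the variants are therefore given as a description, without a test. How the other 8 genes were chosen is not given in the sources used here, so their levels between lines may have entered the choice. All 10 passed the filter on low values (1 library or more with 5 CPM or above, where CPM are tags scaled to a library total of 1000000), but *CES1* did so only through T98G.

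CAGE-Seq counts sequences at the 5′ ends of capped transcripts, so its level of a gene does not scale with transcript length. The 4 established glioblastoma lines U87MG, T98G, U251MG, and DBTRG-05MG were each measured as a “Vec” and a “WWOX” variant in 3 libraries, which gave 24 libraries in 8 groups. “Vec” cells carried Puro-Blank Lentivirus and “WWOX” cells the pLenti-GIII-CMV-GFP-2A-Puro vector of the GIPZ system, in which the CMV promoter drives *WWOX*, a putative tumor suppressor. Both were transduced at a multiplicity of infection of 1.5 and selected as clones with 1 µg/mL puromycin, so every group carried the agent. The sources used here do not state that a variant of a line came from more than 1 stable transduction, so *WWOX* and the selected cells cannot be told apart. T98G grew in MEM, U87MG and U251MG in EMEM, and DBTRG-05MG in RPMI 1640, so T98G and DBTRG-05MG cannot be told apart from their medium. The patient origin of U87MG is uncertain according to the study. Libraries held between 10756072 and 16953689 tags on genes. The authors call the 3 libraries biological triplicates, and whether they came from separate cultures is not stated, so p-values measure the spread between these libraries.

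NRF2, encoded by *NFE2L2*, is a transcription factor that the adaptor KEAP1 normally holds in the cytoplasm and passes on for degradation. Oxidants and electrophiles modify KEAP1, NRF2 then accumulates and, paired with a small MAF protein, binds antioxidant response elements near its target genes. The targets make glutathione, reduce thioredoxin and peroxiredoxins, and convert reactive carbonyls and quinones. Mutations that keep the pathway active are known in several cancers. *ABCC2* and *CES1* belong to the handling of drugs and other xenobiotics: the first pumps conjugates out of cells, and the second cleaves esters.

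Antioxidant response elements were looked for as the letters TGACNNNGCA on either strand in the 1000 bases before the start of the main transcript (MANE Select, GENCODE 44, hg38). Of the 10 genes, 2 held such letters, *GCLM* and *NQO1*, against 9.32% of 19059 windows of the same length. In the windows of RefSeq (GRCh38.p14; 250 bases before to 50 after a start), 8 of the 10 genes had an entry. There the letters were found in 2 of the 10 windows of these genes, that of *GCLM* and a second start of *TXNRD1*, against 3.18% of 35116 windows. A match is a description of the letters, not a measured binding site. The 3 sites are shown because they are the matches among these genes. Each is written 5′ to 3′ on the strand of its gene, with the match in capitals, and it is read from the opposite strand for *GCLM* and *TXNRD1*. They lie at chr1:93909446-93909475 (minus strand), chr16:69726996-69727025 (minus strand), and chr12:104286919-104286948 (plus strand).
GCLM: ctacgatttcTGCTTAGTCAttgtcttcca
NQO1: gcagtcacagTGACTCAGCAgaatctgagc
TXNRD1: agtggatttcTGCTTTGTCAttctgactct
The *GCLM* match covers bases 35 to 26 before the start, and the *NQO1* match bases 455 to 446. That of *TXNRD1* covers bases 103 to 94 before the start at 104287032.

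Before the comparisons, the targeted gene and the libraries were checked. *WWOX* (chr16:78099400-79212667, plus strand) had 33.9–40.1 CPM in the 3 “Vec” and 61.0–66.0 CPM in the 3 “WWOX” libraries of U87MG, which did not overlap (log2FC 0.66 ± 0.22 SE, adjusted p = 0.136). DBTRG-05MG had 20.4–22.2 and 28.0–32.0 CPM, again without overlap (log2FC 0.39 ± 0.22, adjusted p = 0.770). T98G (34.2–57.2 and 45.1–61.8 CPM) and U251MG (31.4–36.8 and 17.4–56.7 CPM) overlapped. Thus, *WWOX* tags did not pass the threshold in any line. The study reports that a Western blot verified the transduction, but that measures protein. Transcripts from the CMV promoter start in the vector, and reads were aligned to hg38. How far the counts include tags of the vector is not known here, so they do not measure the overexpression. In these *WWOX* counts, U251MG “WWOX” replicate 2 lay below all 3 “Vec” libraries. The same group stood apart in another respect. Its libraries correlated at 0.904–0.930 with each other (mean r over 12327 genes on the log2 scale), whereas every other library reached at least 0.949 with its group. Hence, results on U251MG are also given without single libraries below.

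Markers of the label were read in the same libraries. *CD44* was the most abundant of 8 glioblastoma and glial markers in 3 lines (807–2880 CPM as group means), and *GFAP* in U251MG, with 2655 CPM in “Vec” and 1949 CPM in “WWOX”. *GFAP* was between 1.99 and 6.12 CPM elsewhere. In “Vec”, *CD44* made up most of the summed markers in the 3 lines. It gave 807 of 988 CPM in U87MG, 1789 of 1948 CPM in T98G, and 2880 of 3108 CPM in DBTRG-05MG. Of the 8 markers, 6 to 8 exceeded 3 tags in a library of a given group. Since *CES1* and *ABCC2* are abundant in liver, hepatocyte markers were included: *ALB*, *APOB*, *TTR*, and *CYP3A4* had group means of at most 0.11 CPM. *APOA1* had at most 0.311 CPM outside U251MG, where it had 1.40 and 0.904 CPM in “Vec” and “WWOX”. *SERPINA1* was the most abundant of the 6 in every group, with 14.8 and 8.20 CPM in U87MG, 6.31 and 12.2 CPM in U251MG, 3.03 and 4.30 CPM in DBTRG-05MG, and 2.75 and 2.87 CPM in T98G. U87MG “Vec”, the group highest in *ABCC2*, was thus also the highest in *SERPINA1*, whose part in the values of *ABCC2* was not tested. The immune markers *PTPRC* and *AIF1* were at most at 0.03 CPM, and *CSF1R* reached 10.2 CPM in U87MG “Vec”. Endothelial markers summed to at most 0.26 CPM outside U251MG, where *CDH5* had 2.84 and 8.26 CPM.

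T98G stood above the other lines in nearly all of the 10 genes. For 2 of them the choice had a part in it, and for the other 8 it may have had one. In “Vec” cells, 9 of them were higher in T98G than in each of the other 3 lines, against 6.0% of all genes tested, and 4.28% were lower. In “WWOX” cells all 10 were, against 6.45%. The exception in “Vec” was *ABCC2*. *CES1* entered the test only because of T98G, and *ABCC2* was chosen by its values in T98G and U87MG, so nothing is read from these 2. Among the other 8 genes, all 24 comparisons with T98G passed the threshold in each variant, with T98G higher. Since the levels of these 8 between lines may have entered their choice, their counts and adjusted p-values between lines are a description. The 8 include *AKR1C1*, *AKR1C2*, and *AKR1C3*, which are alike in sequence, so the comparisons are not independent. By comparison, 39.8%, 32.3%, and 41.2% of all genes passed for T98G against U87MG, U251MG, and DBTRG-05MG in “Vec”, and 40.9%, 39.5%, and 44.3% in “WWOX”. Among the 3 pairs without T98G, 13 of 24 comparisons of these 8 genes passed in “Vec” and 11 of 24 in “WWOX”, where the shares of all genes were 38.6%, 44.1%, and 31.6% in “Vec” and 41.4%, 47.1%, and 37.8% in “WWOX” (U87MG against U251MG, U87MG against DBTRG-05MG, and U251MG against DBTRG-05MG).

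**Figure D1:**
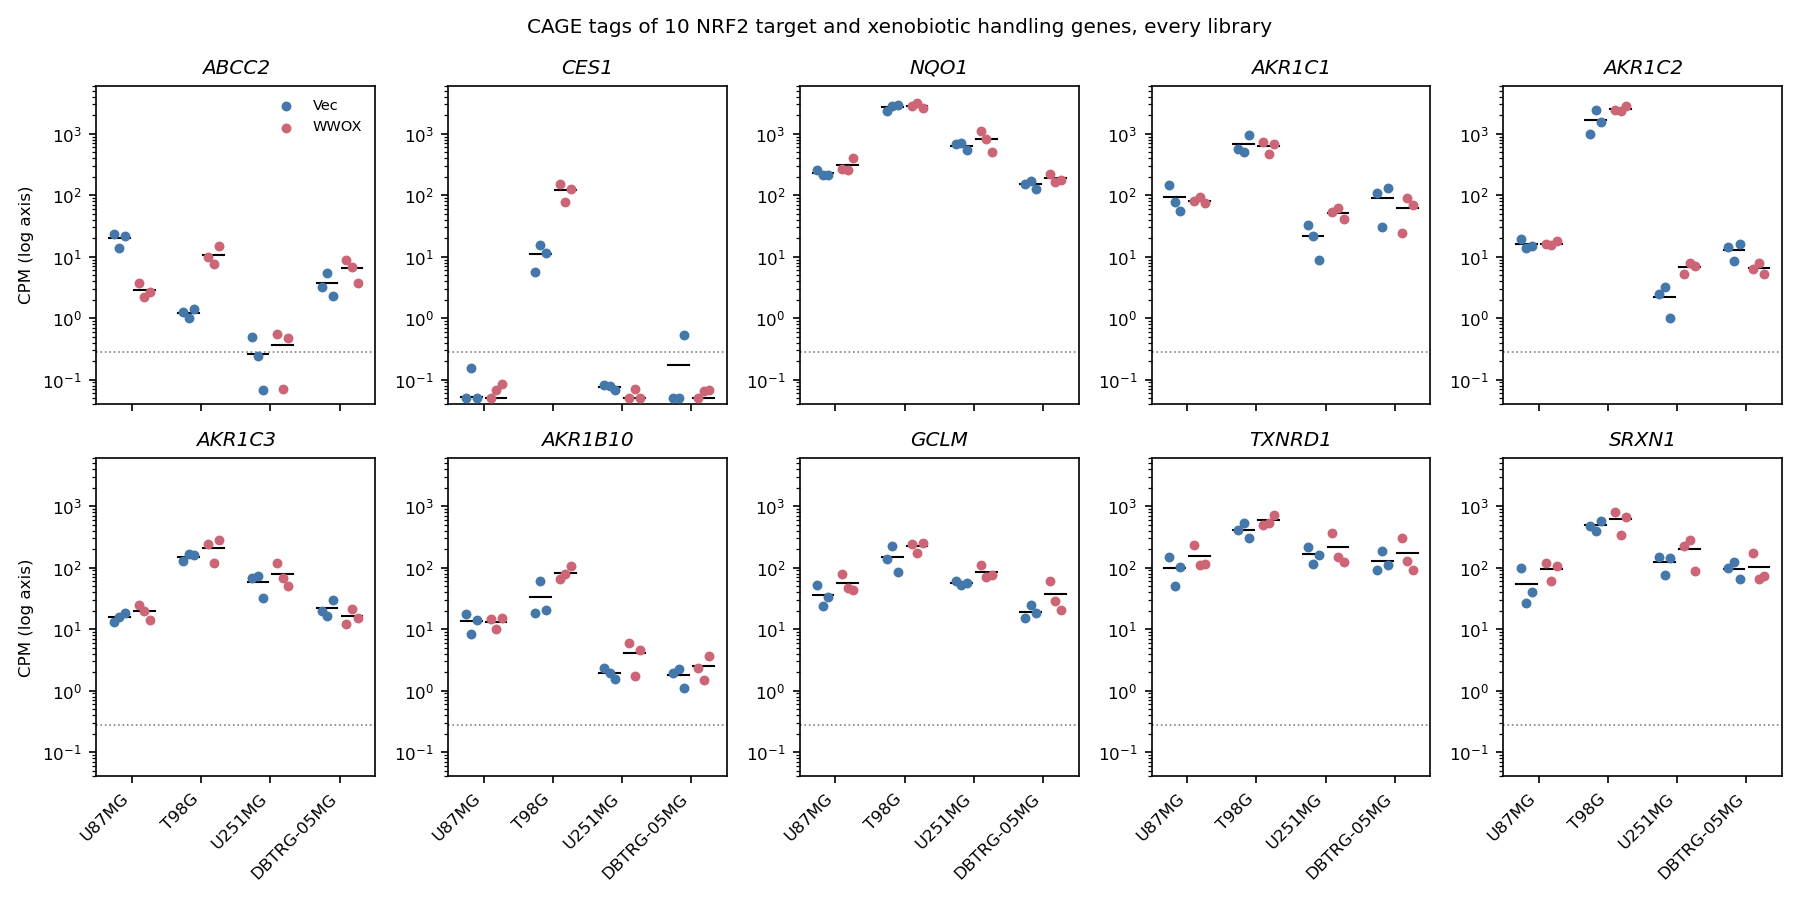
CPM on a log axis of the 10 genes in each of the 24 libraries, by line and variant; points are libraries, short lines are group means, the dotted line is 3 tags in the smallest library, and values under 0.05 are drawn at 0.05. The means of T98G are highest in all panels but *ABCC2*, where U87MG “Vec” is highest, and *CES1* is near 0 outside T98G.

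*NQO1* (chr16:69706996-69726668, minus strand) encodes a quinone reductase and is a classical NRF2 target. It had 2344, 2844, and 2925 CPM in T98G “Vec” and 2832, 3130, and 2586 CPM in T98G “WWOX”. U251MG followed with 674, 710, and 550 CPM in “Vec” and 1110, 814, and 503 CPM in “WWOX”. U87MG held 210–261 and 258–405 CPM, and DBTRG-05MG 128–171 and 164–223 CPM. The order T98G, U251MG, U87MG, DBTRG-05MG was the same in both variants, and each neighbour in it differed beyond the threshold. Between the first pair the log2 difference in “Vec” was 2.23 ± 0.29 SE (adjusted p = 2.25e-06), and between the last pair 0.82 ± 0.29 (adjusted p = 0.027). An unnamed lncRNA overlaps the gene on the opposite strand, and whether the counting used the strand is not given in the sources used here.

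The aldo-keto reductases of the AKR1C family reduce ketosteroids, prostaglandins, and reactive carbonyls, and 3 of their genes lie side by side on chromosome 10. *AKR1C1* is at chr10:4963253-4983283 (plus strand), *AKR1C2* at chr10:4987775-5018031 (minus strand), and *AKR1C3* at chr10:5035354-5107686 (plus strand). *AKR1C2* separated the lines most widely of these 3. T98G “Vec” libraries had 983, 2412, and 1584 CPM and T98G “WWOX” libraries 2439, 2360, and 2806 CPM, whereas the other 18 libraries ranged from 1.00 to 19.7 CPM. Hence, the lowest T98G library was 49.8 times the highest library of any other line. The log2 difference of T98G from U251MG in “Vec” was 9.40 ± 0.33 (adjusted p = 1.66e-15). *AKR1C1* had 464–951 CPM in the 6 T98G libraries and 8.84–146 CPM elsewhere. *AKR1C3* had 121–277 CPM in T98G, but the highest library of U251MG reached 121 CPM, just above the lowest T98G library. In *AKR1C3* the second line was U251MG, with 66.8, 74.2, and 32.5 CPM in “Vec” against 13.1, 15.6, and 18.5 CPM in U87MG (log2 difference 1.61 ± 0.36, adjusted p = 0.000987). For *AKR1C1* and *AKR1C2* in “Vec” U251MG was instead the lowest line, with 33.3, 22.0, and 8.84 CPM, and with 2.51, 3.18, and 1.00 CPM.

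The proportion of both neighbours also differed between lines. *AKR1C2* divided by *AKR1C1* was between 1.66 and 5.09 in the 6 T98G libraries and between 0.0749 and 0.280 in the 18 others. Therefore, *AKR1C2* exceeded *AKR1C1* in every T98G library and in none elsewhere. Within T98G “Vec”, the ratio was 1.71, 4.71, and 1.66, and replicate 2 stood apart. The coding sequences of *AKR1C1* and *AKR1C2* are 98.04% identical over 969 bases, and both are 91.6% and 91.2% identical to that of *AKR1C3*. The first 75 bases of the transcripts compared, where tags from those starts would map, differ by 12 edits between *AKR1C1* and *AKR1C2*. As tags were counted per gene, where they lay within these genes is not known here. How reads with several possible origins were treated is not given in the sources used here, so the split between these genes remains uncertain. *AKR1C4*, the fourth gene of the family, had 0 tags in all 24 libraries.

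**Figure D2:**
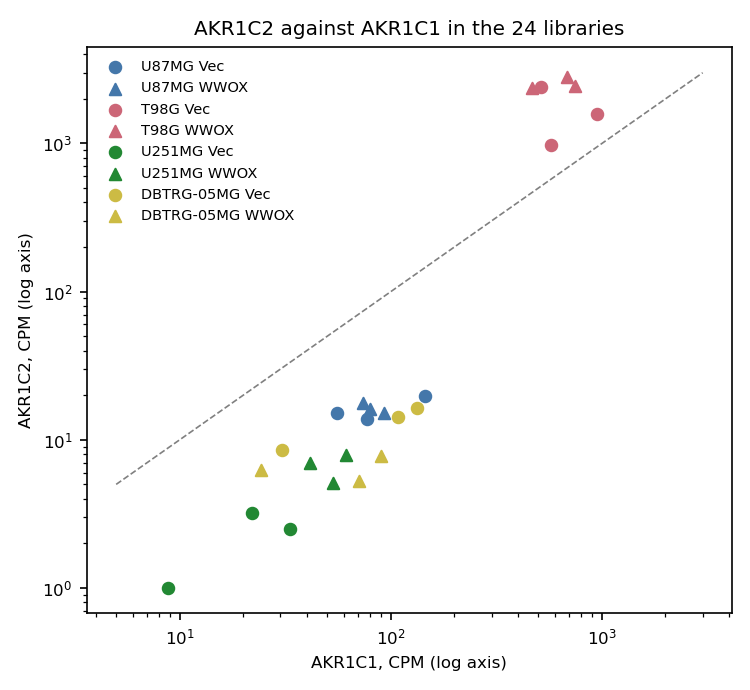
*AKR1C2* against *AKR1C1* in CPM, both on log axes, with 1 point per library, colored by line and shaped by variant; the dashed line marks equal values. The 6 T98G libraries lie above the line and the other 18 below it.

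*AKR1B10* (chr7:134527567-134541412, plus strand) encodes an aldo-keto reductase that accepts retinal and other aldehydes. Its values were 18.3, 61.1, and 20.2 CPM in T98G “Vec” and 66.5, 77.5, and 104.6 CPM in T98G “WWOX”. U87MG had 8.27–17.9 CPM in both variants, and no library of U251MG or DBTRG-05MG exceeded 6.04 CPM. U251MG and DBTRG-05MG, the last neighbours in the order, did not differ beyond their spread (log2 difference in “Vec” 0.15 ± 0.39, adjusted p = 0.818). Its near copy *AKR1B15* (coding sequence 86.7% identical) had 4.29–7.92 CPM in T98G and 0.351–2.85 CPM in U87MG, and 33 of the first 75 bases differ.

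*CES1* (chr16:55802851-55833337, minus strand) encodes carboxylesterase 1, which activates or clears many ester drugs. T98G had 5.62, 15.7, and 11.6 CPM in “Vec”. The other lines had 8 tags in 1 library of DBTRG-05MG “Vec” (0.527 CPM) and at most 2 tags in any other library. The T98G values of both variants chose this gene, so its differences from other lines are a description. At 3 tags per library as the floor, T98G “Vec” was at least 50.2-fold higher than U87MG “Vec” and 48.2-fold higher than U251MG “Vec”. T98G “WWOX” was at least 560-fold higher than U87MG “WWOX”, 576-fold higher than U251MG “WWOX”, and 622-fold higher than DBTRG-05MG “WWOX”. Such floors cover counting error only.

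*GCLM*, *TXNRD1*, and *SRXN1* are the core redox genes of the set. *GCLM* (chr1:93885199-93909456, minus strand) encodes the modifier subunit of the ligase that limits glutathione synthesis. *TXNRD1* (chr12:104215779-104350307, plus strand) encodes the reductase that keeps thioredoxin reduced. *SRXN1* (chr20:646615-653200, minus strand) encodes sulfiredoxin, which repairs overoxidized peroxiredoxins. In T98G “Vec”, *GCLM* had 139, 228, and 85.9 CPM, *TXNRD1* 408, 538, and 298 CPM, and *SRXN1* 484, 399, and 573 CPM. Group means of the other lines in “Vec” were 19.3–56.5, 100.1–165, and 54.9–122 CPM. From the highest to the lowest mean, the 3 genes varied by 7.83-, 4.14-, and 8.84-fold. U251MG was second for each of them in both variants, but its *TXNRD1* and *SRXN1* did not differ from U87MG or DBTRG-05MG beyond the spread (adjusted p between 0.101 and 0.651). *TXNRD1* overlaps *EID3* and *SRXN1* an unnamed protein-coding gene on the same strand, so some tags may belong to these.

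The redox genes were often highest in the same library of a group. On the scaled log2 values, the library highest in *GCLM* was also the highest in *TXNRD1* in 7 of 8 groups, and all 3 genes shared it in 5 of 8. It was the highest in *GCLC* and in *SLC7A11*, which encode the catalytic subunit of the same ligase and the cystine carrier, in 7 of 8 groups each. Of the remaining genes, *ABCC2* shared it in 6 of 8, *AKR1B10* in 5, *NQO1* in 4, *AKR1C1* in 3, and *AKR1C2* and *AKR1C3* in 2. *CES1* shared it in 3, from which nothing is read, as this gene had few tags outside T98G. *HMOX1* and *OSGIN1*, which are further NRF2 targets, shared it in 5 of 8 each. Of all other genes tested, 2.21% shared it in at least 7 of 8 groups and 21.5% in at least 5. DBTRG-05MG “WWOX” replicate 1 was such a library, with 60.6 CPM of *GCLM* against 29.0 and 20.8 CPM, 305 CPM of *TXNRD1* against 127 and 92.8 CPM, and 171 CPM of *SRXN1* against 64.5 and 74.2 CPM. Likewise, U87MG “Vec” replicate 1 had 51.4 CPM of *GCLM* against 23.5 and 32.8 CPM. The library highest in *GCLM* was the deepest of its group in 4 of 8 groups. These counts are descriptions, and the genes besides the 10 were chosen here after their values were seen.

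*ABCC2* (chr10:99782640-99852594, plus strand), the export pump, followed another order than the rest. In “Vec”, U87MG had 23.8, 13.8, and 22.1 CPM, DBTRG-05MG 3.27, 5.54, and 2.31 CPM, T98G 1.27, 1.00, and 1.40 CPM, and U251MG 0.486, 0.239, and 0.0670 CPM, which are 6, 3, and 1 tags. The libraries of neighbouring lines did not overlap. In “WWOX” the order was T98G, DBTRG-05MG, U87MG, and U251MG, with group means of 10.8, 6.43, 2.85, and 0.365 CPM. As the values of U87MG and T98G chose this gene, its order is a description, with no test. Thus, T98G stood below DBTRG-05MG in one variant and above it in the other. For 3 of the 10 genes (*NQO1*, *AKR1B10*, and *GCLM*), the order of all lines was the same in both on CPM means and on scaled log2 values. For *AKR1C1*, *TXNRD1*, and *SRXN1* it was the same on CPM means, whereas a pair of lower lines changed places on scaled log2 values.

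The next question was how “WWOX” cells differed from “Vec” cells of the same line. In U87MG, *ABCC2* fell from 23.8, 13.8, and 22.1 CPM to 3.67, 2.24, and 2.63 CPM, the difference for which it was chosen (log2FC -2.66 ± 0.34). The libraries of both variants did not overlap. Of the other genes, *SRXN1* (0.89 ± 0.53), *GCLM* (0.61 ± 0.35), and *TXNRD1* (0.59 ± 0.45) had the largest log2FC, and for all 3 the libraries overlapped. Leaving out single libraries gave 0.50 to 1.41 for *SRXN1*, 0.36 to 0.91 for *GCLM*, and 0.17 to 0.94 for *TXNRD1*, lowest without “Vec” replicate 2 and highest without “Vec” replicate 1. *AKR1C1*, *AKR1C2*, and *AKR1B10* had log2FC between -0.12 and -0.03. *ABCC2* was the only gene of the 10 whose libraries did not overlap in U87MG, where this held for 17.5% of all genes tested and 3.20% passed the threshold.

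In T98G, *ABCC2* had 9.95, 7.50, and 15.1 CPM in “WWOX”, against 1.00–1.40 CPM in “Vec” (log2FC 2.69 ± 0.34). *CES1* had 154, 76.9, and 128 CPM, against 5.62–15.7 CPM (log2FC 3.45 ± 0.31). Both are the differences that chose these genes. *CES1P1*, a pseudogene of *CES1*, had 2.95, 7.58, and 5.37 CPM in “Vec” and 18.2, 20.1, and 21.6 CPM in “WWOX”, so reads of either may have been counted for the other. *AKR1B10* had a log2FC of 1.51 ± 0.39, *AKR1C2* of 0.70 ± 0.33, *GCLM* of 0.66 ± 0.35, and *NQO1* of 0.08 ± 0.29. T98G “Vec” replicate 2, with 61.1 CPM, was close to the “WWOX” libraries in *AKR1B10*, and without it the log2FC was 1.98. Without T98G “Vec” replicate 1, that of *AKR1C2* was 0.37. That of *GCLM* was 0.40 without “Vec” replicate 3 and 0.93 without “Vec” replicate 2. On the scaled log2 values, 5 of the 10 genes had no overlap between variants in T98G (*ABCC2*, *CES1*, *AKR1C2*, *AKR1B10*, and *TXNRD1*), all higher in “WWOX”, as against 16.2% of all genes tested in either direction. On CPM, *AKR1C2* and *TXNRD1* did overlap. “Vec” replicate 2 had 2412 CPM of *AKR1C2* against 2360 CPM in “WWOX” replicate 2. It had 538 CPM of *TXNRD1* against 503 and 530 CPM in “WWOX” replicates 1 and 2. The median log2FC of the 10 genes was 0.59, and that of all genes tested -0.04. In T98G, 1.14% of all genes passed the threshold. As the choice of genes used this contrast, nothing is read from these counts.

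**Figure D3:**
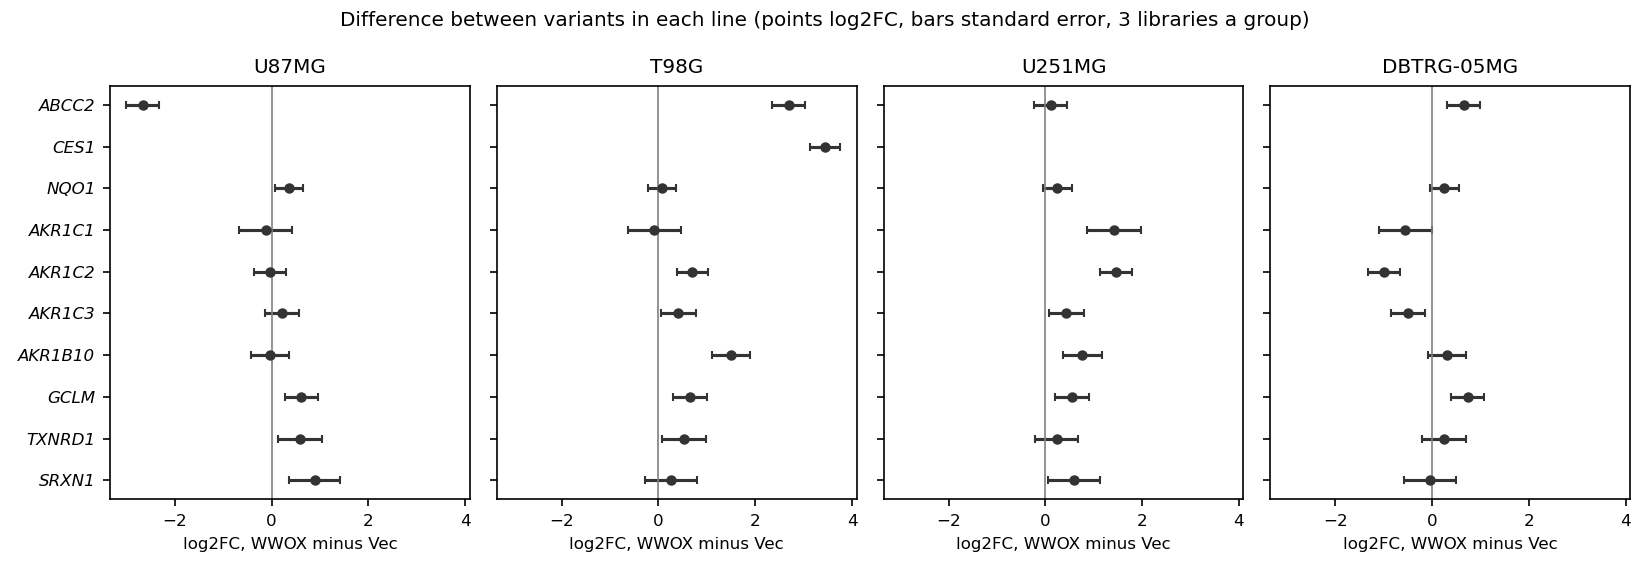
log2FC of “WWOX” minus “Vec” for the 10 genes in each line; points are estimates and bars are standard errors, with 3 libraries per group. *ABCC2* lies at -2.66 in U87MG and at 2.69 in T98G, and *CES1* is left out of the 3 lines in which the mean of both variants was below the CPM of 3 tags in the smallest library.

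In U251MG, which is not among the contrasts known to have chosen genes, 0 of the 10 genes passed the threshold, against 0.316% of all genes tested. Leaving out *CES1* and *ABCC2*, which had few tags in this line, the other 8 genes had positive log2FC, with a median of 0.57 and of 0.00 over all genes. Not all 8 stayed positive without single libraries. The ranges were -0.0215 to 0.67 for *NQO1*, -0.16 to 0.66 for *TXNRD1*, 0.0406 to 1.20 for *SRXN1*, and 0.081 to 0.83 for *AKR1C3*. *AKR1C2* came closest to the threshold, with 2.51, 3.18, and 1.00 CPM in “Vec” and 5.14, 7.94, and 6.97 CPM in “WWOX” (log2FC 1.46 ± 0.33, adjusted p = 0.0555). It did not overlap between variants, and *AKR1C1* (log2FC 1.42 ± 0.55, adjusted p = 0.303) and *GCLM* (0.55 ± 0.35, adjusted p = 0.587) did not either. Without single libraries, the log2FC of *AKR1C1* was between 0.92 and 1.86, lowest without “Vec” replicate 3. Among all genes, 10.4% had no overlap. DESeq2 on the recovered tags called *AKR1C2* (adjusted p = 0.00494), as did the main model without U251MG “WWOX” replicate 1 (log2FC 1.70, adjusted p = 0.0320). Without “Vec” replicate 3 the log2FC was 1.09 (adjusted p = 0.413). Of the other libraries of this line, leaving out “WWOX” replicate 2 gave 1.12 (adjusted p = 0.0560).

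In DBTRG-05MG, 0 of the 10 genes passed either, against 1.02% of all genes tested. *AKR1C2* had 14.3, 8.50, and 16.4 CPM in “Vec” and 6.25, 7.78, and 5.28 CPM in “WWOX”. It was the only one without overlap (log2FC -0.99 ± 0.33, adjusted p = 0.264), which held for 19.7% of all genes. *ABCC2* had 2.31–5.54 CPM in “Vec” and 3.77–8.73 CPM in “WWOX” (log2FC 0.65 ± 0.34, adjusted p = 0.707). Its log2FC was 0.35 without “Vec” replicate 3 and 0.98 without “Vec” replicate 2. *GCLM* had a log2FC of 0.73 ± 0.35 (adjusted p = 0.641), which fell to 0.34 without “WWOX” replicate 1. When single libraries were left out, the signs of *SRXN1*, *AKR1C1*, *AKR1B10*, and *TXNRD1* turned. With all libraries, the genes with a value had 5 positive and 4 negative log2FC. At this number of libraries, the standard error of these genes was between 0.29 and 0.55 on the log2 scale in every line, and differences of over 3 standard errors, such as those of *AKR1C2* in U251MG and DBTRG-05MG, did not pass.

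Whether the rest of the pathway behaved alike was examined with 82 further genes in 9 lists, of which 73 passed the filter. The lists were chosen with earlier results of these data known, so they are not an independent look at the pathway. *NFE2L2* itself had group means of 19.4 CPM in T98G “Vec”, 10.8 CPM in DBTRG-05MG, 4.52 CPM in U251MG, and 3.41 CPM in U87MG. *KEAP1* was between 46.3 and 69.4 CPM in all 8 groups. Between the variants, neither passed the threshold in any line (*NFE2L2* log2FC 0.30, 0.34, 0.22, and 0.63 in U87MG, T98G, U251MG, and DBTRG-05MG, adjusted p between 0.661 and 0.905).

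The listed genes were also compared between T98G and the other lines. Of the 73, 24 were higher in T98G than in each other line in “Vec”, against 6.0% of all genes, and 1 was lower, *GSTA4*, a glutathione transferase. In “WWOX” 24 were higher and 2 lower, *GSTM4* and *GSTA4*. Some of these genes had reached 5 CPM in T98G alone and so entered the test only because of it, which held for *CYP4F11*, *ALDH3A1*, and *AHRR* in “Vec” and for these and *ABCG2* in “WWOX”. Among the 69 listed genes with 5 CPM in a library outside T98G, 21 were higher in “Vec” and 20 in “WWOX”, against 4.31% and 4.81% of all such genes. The 24 in “Vec” were 3 of 10 regulators (*NFE2L2*, *BACH1*, *SQSTM1*), 3 of 7 glutathione and thioredoxin genes, 3 of 6 NADPH supply genes, and 1 of 5 heme and iron genes (*FTL*). They also held 2 of 5 other NRF2 targets, 6 of 14 phase I enzymes, 1 of 13 phase II enzymes, and 2 of 7 export transporters. The list of xenobiotic receptors, which does not hold receptors alone, gave 3 of 6 genes (*AHRR*, *TIPARP*, and *RXRA*). *AHR* itself was not among them. In “WWOX” the breakdown was another, with 0 of 10 regulators, 2 of 7 glutathione and thioredoxin genes, 4 of 6 NADPH supply genes, and 1 of 5 heme and iron genes. The remaining “WWOX” calls were 3 of 5 other NRF2 targets, 4 of 14 phase I enzymes, 3 of 13 phase II enzymes, and 3 of 7 export transporters. The list of xenobiotic receptors gave 4 of 6 genes (*AHR*, *ARNT*, *AHRR*, and *TIPARP*). *FTL*, the light chain of ferritin, had a mean of 23283 CPM in T98G “Vec” and of 899–5679 CPM in the other “Vec” groups. *ALDH3A1*, an aldehyde dehydrogenase, had 124 CPM in T98G “Vec” and at most 0.57 CPM in the other “Vec” groups, and *EPHX1*, an epoxide hydrolase, 2158 CPM and at most 594 CPM. *AHR*, the receptor of dioxin and similar ligands, had 82.1 CPM in T98G and 49.0 CPM in U87MG “Vec”, while U251MG and DBTRG-05MG had at most 0.13 CPM. Not every gene followed, as *HMOX1*, heme oxygenase, had 198 CPM in T98G “Vec” and 718 CPM in U87MG “Vec”. These examples were taken after their values were seen.

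**Figure D4:**
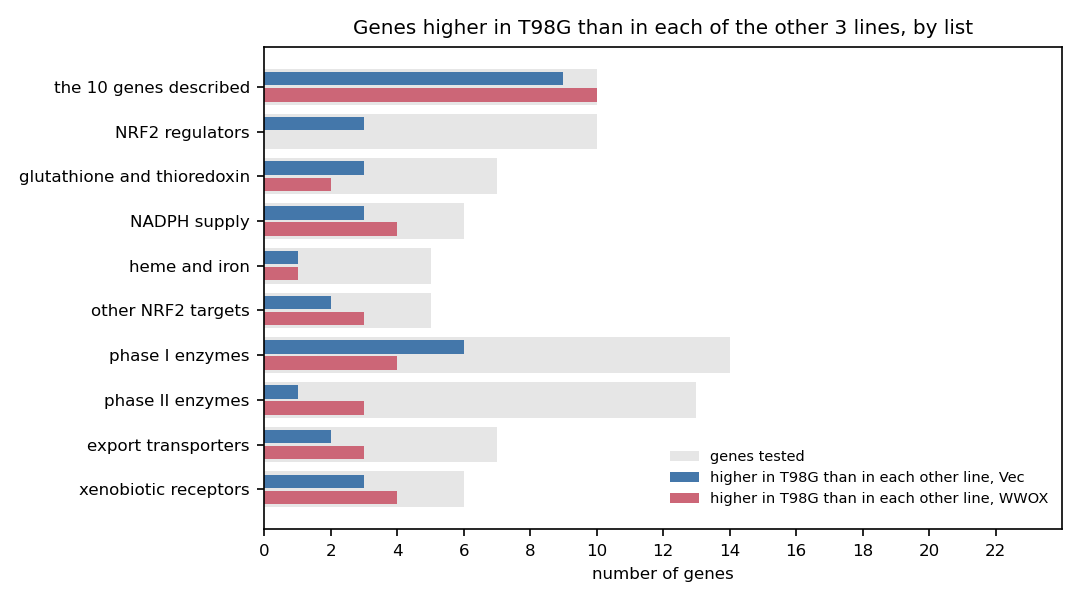
Number of genes in each list that passed the threshold as higher in T98G than in each of the other 3 lines, in “Vec” (blue) and “WWOX” (red), over the number tested (grey). The bars of the 10 genes described, 9 and 10, include *CES1* and *ABCC2*, from which nothing is read, and lists differ in size and hold genes that entered the test through T98G alone.

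Between variants, 1 of the 73 listed genes passed the threshold in U87MG, against 3.20% of all genes. In DBTRG-05MG 1 passed, against 1.02%, but it had entered the test only through the group where it was higher. *GSTM3*, a glutathione transferase, had 2, 1, and 1 tags in U87MG “Vec” and 16, 7, and 10 tags in “WWOX” (0.0701–0.142 and 0.475–0.979 CPM). It was at least 3.51-fold higher with 3 tags per library as the floor (adjusted p = 0.0241). *ABCB1*, the multidrug exporter P-glycoprotein, had 3.14, 4.19, and 8.69 CPM in DBTRG-05MG “Vec” and 2.12, 1.62, and 1.64 CPM in “WWOX” (log2FC -1.27 ± 0.30). It passed the filter only through “Vec” replicate 3 of this line, a library of the higher group, and had means of at most 0.48 CPM in the other lines. Its difference is therefore a description, and nothing is read from its call. In both cases the variants did not overlap. Both calls depended on the settings. That of *ABCB1* was lost with edgeR, limma-voom, and DESeq2, though its log2FC was -1.60, -1.50, and -1.61 (adjusted p = 0.410, 0.298, and 0.272). That of *GSTM3* was lost with a pseudocount of 1 (log2FC 0.69, adjusted p = 0.205). Leaving out “Vec” replicate 2 or any “WWOX” library of DBTRG-05MG also ended the first (log2FC between -1.34 and -1.21, adjusted p between 0.0647 and 0.161). Without “Vec” replicate 3, *ABCB1* fails the filter and is not tested. Likewise, leaving out “Vec” replicates 2 or 3 or “WWOX” replicates 1 or 3 of U87MG ended the second (fitted log2FC between 0.98 and 1.06, adjusted p between 0.0941 and 0.123). In T98G and U251MG, where 1.14% and 0.316% of all genes passed with limma on log2 values, 0 of 73 passed with it, edgeR, limma-voom, or DESeq2, and 11 and 6 had an unadjusted p under 0.05, as did 11.5% of all genes in each. In U87MG and DBTRG-05MG the number was 8 and 11, against 11.5% and 7.63% of all genes.

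By list, the other NRF2 targets (*OSGIN1*, *PIR*, *TRIM16L*, *UGDH*, and *EPHX1*) had positive log2FC for 5 of 5 genes in U87MG, T98G, and DBTRG-05MG and for 4 of 5 in U251MG. Their medians were 0.64, 0.62, 0.78, and 0.17, with 0 genes past the threshold. Other lists varied by line. NADPH supply genes were positive for 5 of 6 genes in T98G (median 0.59) and for 2 of 6 in U251MG (median -0.10). Phase I enzymes in T98G were positive for 5 of 14 (median -0.17), regulators in T98G for 4 of 10 (median -0.19), and phase II enzymes in DBTRG-05MG for 5 of 13 (median -0.19). *HMOX1* in U87MG had a mean of 718 CPM in “Vec” and 3408 CPM in “WWOX” without overlap (log2FC 2.77 ± 0.98, adjusted p = 0.172). Over all 73, the median log2FC was 0.11, 0.08, 0.09, and 0.05 in U87MG, T98G, U251MG, and DBTRG-05MG, when that of all genes was between -0.04 and 0.00.

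Differences of the “WWOX” effect between lines were tested for the 73 listed genes in 6 pairs of lines. Of 438 comparisons, 0 passed the threshold with limma on log2 values, and 36 (8.22%) had an unadjusted p under 0.05, as did 10.2% of all genes over these pairs. Among all genes, 2.29%, 1.58%, and 1.87% passed for U87MG against T98G, U251MG, and DBTRG-05MG, 0.876% and 0.941% for T98G against U251MG and DBTRG-05MG, and 0.576% for U251MG against DBTRG-05MG. The smallest adjusted p was 0.0558, for *GSTM3* in U87MG against DBTRG-05MG. Other tools made more calls from the recovered tags, 3 with edgeR, 3 with limma-voom, and 5 with DESeq2, where the shares of all genes were 0.956%, 0.998%, and 2.14%.

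Finally, the genes most alike to each of the 10 were sought by Pearson’s r over the 8 group means of scaled log2 values. As 8 means come from 4 lines, a high r chiefly states which line is high, and it is given as a description. Among the 10, the closest pairs were *TXNRD1* with *SRXN1* (r = 0.985), *AKR1C1* with *AKR1C2* (r = 0.985), and *NQO1* with *AKR1C3* (r = 0.973). The closest of the 10 to *GCLM* was *NQO1* (r = 0.967), to *CES1* it was *TXNRD1* (r = 0.944), and to *AKR1B10* it was *AKR1C2* (r = 0.893). *ABCC2* stood alone, with an r of at most 0.461 with the others (*AKR1B10*). Outside the 10, the closest genes were *ZNF397* to *ABCC2* (r = 0.967), *SOST* to *CES1* (r = 0.998), *NOP53* to *NQO1* (r = 0.997), *COL12A1* to *AKR1C3* (r = 0.992), *PHF5A* to *AKR1B10* (r = 0.991), and *COPS7B* to *GCLM* (r = 0.993). *SLC12A8* was the closest to *AKR1C1* (r = 0.988) and *AKR1C2* (r = 0.989), and *RRBP1* to *TXNRD1* (r = 0.984) and *SRXN1* (r = 0.986).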

How the data were processed

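CAGE libraries of 24 samples were sequenced by the authors, aligned to hg38 with STAR, and counted per gene with SAMtools. CPM, tags per gene scaled to a library total of 1000000, were deposited by the authors. All 24 single-library tables hold the same values as the joint table. Whole tags were recovered from CPM (100% of values in every library, within 0.01), with a median of 14584829 per library. Samples were grouped by their titles, and 0 columns of other samples were found.

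TMM factors were applied to CPM, and 0.5 was added before log2, which understates changes of low genes. On the 12327 genes that reached 5 CPM in 1 library or more, limma 3.58.1 (trend; R 4.3.3) was fitted to 8 groups with 16 residual degrees of freedom. Two-sided p-values were adjusted by the Benjamini-Hochberg method over all genes of a contrast, with a threshold of 0.05. Groups with 3 tags or fewer in every library were treated as a limit, and no fold is given where the other group’s mean was also below the CPM of 3 tags. The scripts were tested on simulated data. Alternatives were edgeR 4.0.16, limma-voom, and DESeq2 1.42.0 on the recovered tags, other pseudocounts, filters, and scalings, a model per line, a replicate block, and leaving out each library.

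The genes, lists, and tests were chosen with earlier results of these data known. The text names *WWOX*, the 10 genes, *NFE2L2*, *KEAP1*, listed genes past the threshold between variants, and for each of the 10 the gene with the highest r. Other names were added after values were seen, as stated. Positions are those of GENCODE 44 (hg38).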

Additional observations from a re-analysis of the deposited data

Results flagged for a closer look

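*ABCC2* was noted because its libraries moved in opposite directions in 2 lines. All 3 “WWOX” libraries of U87MG were below its “Vec” libraries, and all 3 of T98G were above. The log2FC of U87MG minus that of T98G was -5.35, and this difference was not tested, as both values entered the choice of the gene.

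*AKR1C2* was noted for the same reason. It was higher in all “WWOX” libraries of T98G and U251MG and lower in all of DBTRG-05MG on scaled log2 values. The log2FC differed by 1.69 between T98G and DBTRG-05MG and by 2.45 between U251MG and DBTRG-05MG. Neither difference was tested, and in DBTRG-05MG and U251MG *AKR1C2* did not pass the threshold by itself (adjusted p = 0.264 and 0.0555). The U251MG value rests partly on libraries that correlate less with their group than others do.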

How the results depend on the processing

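The numbers of the 10 genes that differed between lines (46 of 60 comparisons in “Vec” and 43 of 60 in “WWOX”, *ABCC2* and *CES1* included) stayed within 1.5 times under all alternatives run, with 44–46 and 41–44. Without single libraries they were 43–46 and 41–44, and 8–9 and 9–10 of the 10 genes were higher in T98G than in each other line. As these counts include *ABCC2* and *CES1*, nothing is read from their stability. For the other 8 genes, whose levels between lines may have entered the choice, only the main counts are given here, as a description. In “Vec”, 24 of 24 comparisons with T98G and 13 of 24 without it passed, and in “WWOX” 24 and 11. The count of listed genes higher in T98G was 18–26 in “Vec” and 20–26 in “WWOX” under the alternatives, which were added for this count after seeing the data, and 20–26 and 21–28 without single libraries.

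Calls of listed genes between variants were few and depended on the settings. In U87MG (1 call) there were 2 with a pseudocount of 0.1, 0 with a pseudocount of 1, and 3 with DESeq2, and 0–2 without single libraries. In DBTRG-05MG (1 call, *ABCB1*, from which nothing is read) there were 0 with a pseudocount of 0.1, a mean of at least 5 CPM, a model per line, edgeR, limma-voom, and DESeq2, and 2 with a pseudocount of 1, and 0–2 without single libraries. In T98G there was 1 call without a filter (*SULT1A1*), and in U251MG 0–3 without single libraries (3 without “WWOX” replicate 2: *BLVRA*, *GSTO1*, and *GSTP1*). For differences of the effect between lines (0 calls), there were 3 with a pseudocount of 0.1, 1 with no filter, 3 with CPM as deposited, 3 with edgeR, 3 with limma-voom, and 5 with DESeq2, and 0–4 without single libraries (4 without U251MG “WWOX” replicate 2). Of the 10 genes, DESeq2 called 1 in U251MG (*AKR1C2*), and 0–1 were called without single libraries, of which T98G “Vec” replicates 1 and 2 and U251MG “WWOX” replicate 1 each gave that call. The cause of these changes was not tested.

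Same-numbered “Vec” and “WWOX” libraries deviated together (r over 0.1) in 4 of 12 pairs, with r from -0.55 to 0.51, so the numbers do not pair the libraries. For other numbers, r ran from -0.63 in T98G to 0.70 in U251MG. In DBTRG-05MG, “Vec” replicates 1, 2, and 3 had r of 0.64, 0.61, and 0.63 with “WWOX” replicates 3, 1, and 2. The remaining pairs of other numbers there had -0.28 to -0.02. Whether libraries shared a batch across variants was not tested, and no model here includes one. With a replicate block, 0 listed genes passed in U87MG and 0 in DBTRG-05MG, and no other count moved by over 1.5 times. The fitted log2FC with the block was 1.08 for *GSTM3* in U87MG (adjusted p = 0.0655) and -1.27 for *ABCB1* in DBTRG-05MG (adjusted p = 0.122).

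The log2FC of *SRXN1* in DBTRG-05MG, -0.05, became 0.0191 with CPM as deposited, 0.0145 with edgeR, and 0.0055 with DESeq2, and it was 0.0181, 0.20, 0.24, or 0.0621 without “Vec” replicates 1 or 2 or “WWOX” replicates 2 or 3 (range -0.44 to 0.24). Leaving out 1 library also turned the small log2FC of *ABCC2* in U251MG (range -0.0786 to 0.32, with -0.026 without “WWOX” replicate 1), *NQO1* in U251MG (-0.0215 to 0.67), *TXNRD1* in U251MG (-0.16 to 0.66, with -0.0356 without “Vec” replicate 2) and DBTRG-05MG (-0.21 to 0.58), *AKR1C1* in DBTRG-05MG (-1.17 to 0.0452), and *AKR1B10* in DBTRG-05MG (-0.001 to 0.59), none of which was called. Ranges also spanned 0, with no test, in T98G for *NQO1* (-0.0196 to 0.23), *SRXN1* (-0.0105 to 0.63), and *AKR1C1* (-0.34 to 0.28) and in U87MG for *AKR1C1* (-0.49 to 0.26), *AKR1C2* (-0.13 to 0.12), and *AKR1B10* (-0.31 to 0.21). *CES1* outside T98G and *ABCC2* in U251MG rest on few tags, so changes there were not detectable at this depth.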
